A study of Arabidopsis thaliana with 3 samples.

Results

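A single two-colour array set Arabidopsis thaliana seedlings held for 40 minutes in the auxin indole-3-acetic acid (IAA) against seedlings held for the same time in the ethanol carrier. It is 1 of 3 such arrays, the others taken after 20 and 60 minutes, and it was chosen by its label and not by its values. Of the 21939 probes in the table of values, 21929 had a value on it, which gave 12132 named genes and 9736 unnamed probes once probes of the same gene were averaged. The IAA seedlings received 10 µM IAA in 0.1% ethanol and the ethanol seedlings 0.1% ethanol alone. Both were wild-type Col-0, 4 days old and grown in darkness at 25 °C on sucrose medium, and about 500 seeds were sown per filter disk, so that each RNA came from many pooled whole seedlings. The table holds ratios and no levels, so the tissue could not be checked against its markers, and a change in the number of cells of a type could not be told apart from a change in RNA per cell. There was 1 array per time, with its own ethanol seedlings, and no replicate, so no test was made and no value below carries an error.

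Auxin acts in the nucleus through TIR1/AFB receptors, which bring Aux/IAA repressor proteins to the ubiquitin system for breakdown and so free the ARF transcription factors. The genes that ARFs then switch on include the classical early auxin genes: the GH3 enzymes, which conjugate auxin to amino acids, the Aux/IAA repressors themselves and the SAUR genes of cell expansion. In dark-grown seedlings auxin is best known for its part in hypocotyl elongation and in the initiation of lateral roots.

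The values were deposited as log2 ratios of the 2 channels, with the numerator and the dyes left unstated in the sources used here. They are printed as deposited. A positive value is likely higher in IAA seedlings than in ethanol seedlings, because IAA is listed as the second channel and known auxin-responsive genes lead that side. The 40-minute log2 ratios ran from -1.69 to 3.42, ratios of 0.31 to 10.73, with a median of 0.01. Their robust SD was 0.22, against 0.16 on the 20-minute array and 0.11 on the 60-minute array. Genes measured by several probes were the only repeated measurement on this array: over 59 such genes the probes of a gene lay a median of 0.17 apart on the log2 scale, and the pooled SD within a gene was 0.23. The like measure over all probes, the ordinary SD, was 0.31. The widest pair belonged to AT1G17330, at -0.67 and 0.79.

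At 40 minutes the long side of the distribution was the positive one. Past a 2-fold difference there were 146 positive named genes, 1.2% of those measured, and 14 negative ones, 0.115%. At 1.5-fold, the numbers were 694 (5.72%) and 167 (1.38%), and at 3-fold 14 (0.115%) and 1 (0.00824%). The unnamed probes had a like split, with 120 (1.23%) past 2-fold with a positive sign and 17 (0.175%) with a negative one. Over genes and unnamed probes together, 266 (1.22%) were positive and 31 (0.142%) negative at 2-fold, 1180 (5.4%) and 304 (1.39%) at 1.5-fold, and 37 (0.169%) and 2 (0.00915%) at 3-fold. Around the middle the array also leaned to the positive side: 6446 named genes (53.1%) lay above 0 and 5304 below. The numbers were 5769 and 5905 at 20 minutes and 6202 and 5164 at 60 minutes. The counts depend on the scale of the array: 29 named genes were past 2-fold on the positive side when the 3 arrays were brought to the same spread, and 94 when the median of neighbouring probe numbers was subtracted. The values run on across the 2-fold line, where LEA, a dehydrin gene, stood at a ratio of 2, just inside, and DL1D and 4 further genes stood at 1.99.

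**Figure D1:**
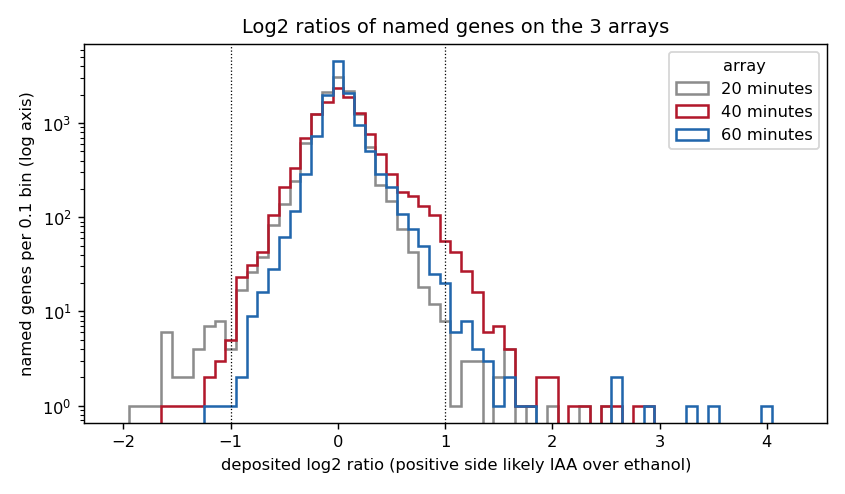
Number of named genes in bins of 0.1 of the deposited log2 ratio, on a log axis, for the arrays at 20, 40 and 60 minutes; dotted lines mark 2-fold. The 40-minute array has a shoulder on the positive side that holds 146 genes past 2-fold, and 14 genes lie past 2-fold below 0.

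The auxin-related lists held 23 measured genes at 40 minutes. Of these, 17 were above 0, 10 were at least 1.5-fold and 8 at least 2-fold on the positive side, 34.8% beside the 1.2% of all named genes. None of the 23 reached 1.5-fold on the negative side. Their median log2 ratio was 0.32, beside 0.03 for all named genes. The 8 were GH3.1, GH3.3, GH3.4, HAT2, LBD29, LBD16, WAG2 and IAA30. The lists were chosen with these data known, and the same genes serve as a basis for the likely direction of the ratios, so the counts are a description of the array.

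Among the GH3 enzymes, which lower the pool of free auxin by conjugating it to amino acids, 3 of 6 measured members passed 2-fold at 40 minutes. GH3.1 stood at a log2 ratio of 2.85, a ratio of 7.2, GH3.3 at 2.47 (ratio 5.53) and GH3.4 at 1.97 (ratio 3.92). These are middle values of a series: GH3.1 stood at 2.45 after 20 and 3.54 after 60 minutes, GH3.3 at 2.0 and 4.02, and GH3.4 at 0.52 and 3.32. WES1 (GH3.5) broke that order, with 0.61 at 40 minutes between 0.77 at 20 and 1.82 at 60 minutes. At 40 minutes GH3.9 was at 0.32 and GH3.17 was at -0.18, and the family thus spanned ratios of 0.88 to 7.2 on 1 array, with GH3.1, GH3.3 and GH3.4 set apart from the other measured members.

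Under a name, 5 of 32 Aux/IAA repressor genes and 3 of 80 SAUR genes were measured. Each gave a lower ratio than GH3.1, GH3.3 and GH3.4. So few members do not describe either family as a whole. IAA30, an Aux/IAA gene, stood at 1.06 at 40 minutes, beside 0.54 at 20 and 0.53 at 60 minutes. IAA34 stood at 0.30, IAA31 at 0.04, IAA20 at -0.06 and IAA18 at -0.20, so that 1 of 5 measured Aux/IAA genes passed 1.5-fold on the positive side, beside 5.72% of all named genes. IAA31 stood at 1.19 at 20 and -0.36 at 60 minutes, and its 40-minute value was -0.11 once the median of neighbouring probe numbers was subtracted. Of 3 SAUR genes, AT2G18010 (SAUR10) stood at 0.93, its highest value of the 3 times, beside 0.42 at 20 and 0.69 at 60 minutes. AT1G43040 (SAUR58) stood at 0.04, which the subtraction of neighbours brought to 0 or below, and AT4G34800 (SAUR4) at -0.18. No ARF gene and no TIR1/AFB receptor gene was measured under a name.

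Transcription factor genes of the HD-Zip and LBD families stood among the highest. HAT2, a class II HD-Zip factor, had nearly the same log2 ratio on each array: 2.33, 2.30 and 2.56 at 20, 40 and 60 minutes. LBD29 stood at 2.16 and LBD16 at 1.94 at 40 minutes. Both act in lateral root formation, and both lay between their 20-minute values (1.58 and 1.62) and their 60-minute values (2.91 and 2.56). PHV, an HD-Zip factor of class III that patterns leaves and vessels, stood at -0.14, or 0.12 after the subtraction of neighbours. The kinase gene WAG2, of the group that steers PIN auxin carriers, stood at 1.56 at 40 minutes, beside 1.19 and 1.46 at the other times, whereas the related PID2 stood at 0.03. The auxin biosynthesis genes of the YUCCA family were all under 1.5-fold, with YUC11 at 0.37, YUC4 at 0.10 and YUC6 at -0.07.

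**Figure D2:**
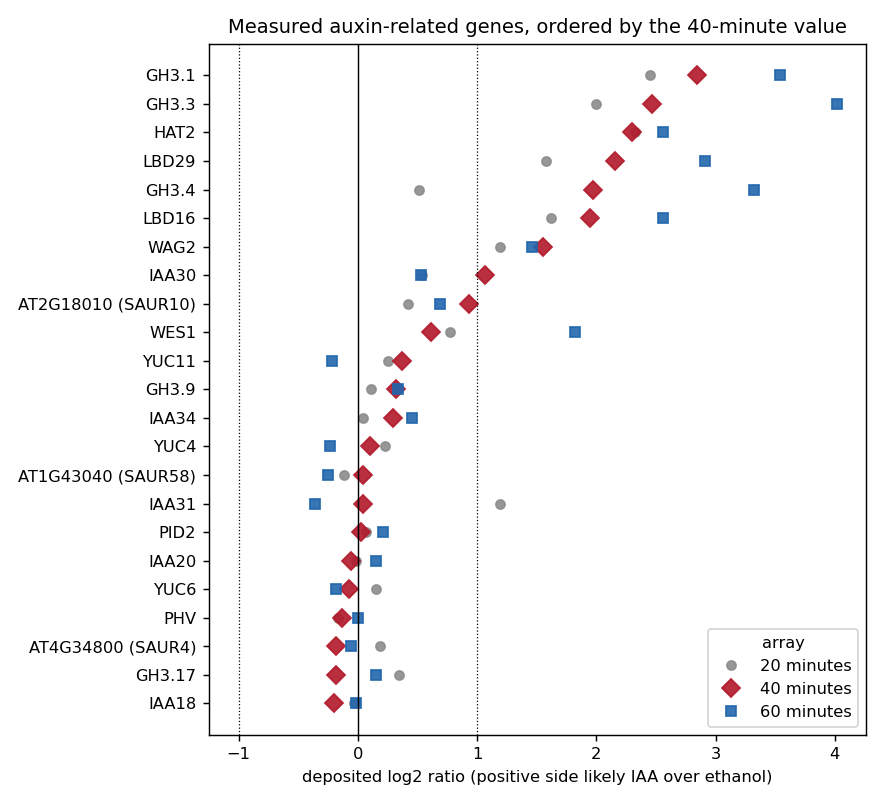
Deposited log2 ratios of the 23 measured auxin-related genes at 20 minutes (grey circles), 40 minutes (red diamonds) and 60 minutes (blue squares), with 1 array per time. Genes are ordered by the 40-minute value, which runs from 2.85 for GH3.1 to -0.20 for IAA18; dotted lines mark 2-fold.

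Among the 20 highest named genes at 40 minutes, auxin genes were mixed with loci that stood high on this array alone. The first was AT5G58160, with a log2 ratio of 2.90 at 40 minutes, a ratio of 7.49, beside -0.56 at 20 and -0.32 at 60 minutes. AT1G21510 was the third, at 2.58, beside 0.31 and 0.00. AT1G14390 followed at 1.92, AT1G20750 at 1.78 and WRKY42 at 1.74, with 20-minute values of -0.54, -0.12 and 0.07 and 60-minute values of -0.03, -0.15 and -0.30. WRKY42 is a transcription factor gene linked to phosphate homeostasis. AGL83, a MADS-box gene, stood at 1.64, beside 0.32 and -0.10. AT1G14460 stood at 1.51, AT1G51520 at 1.49 (tied with AT5G37460) and AT1G50350 at 1.54, the last with 0.70 at 20 and 0.00 at 60 minutes. AT5G38440 came just below that tie, at a ratio of 2.8 against 2.81. Of the 20, 8 were under 1.5-fold at both other times, and 8 were at least 1.5-fold positive at both.

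Those 8 genes, together with AT3G51410 from below the 20 highest, were the only named genes past 2-fold here whose values on both other arrays also reached 1.5-fold with the same sign. Beside GH3.1, GH3.3, HAT2, LBD29, LBD16 and WAG2 they were 3 loci without a symbol in the tables used. AT5G66580 stood at 1.8, 1.97 and 1.7 at 20, 40 and 60 minutes, AT1G68360 at 1.48, 1.53 and 1.05, and AT3G51410 at 0.72, 1.25 and 1.21. The first 2 of these loci kept within about 0.5 of a log2 unit over the hour, as HAT2 did. GH3.4 missed the condition at 20 minutes (0.52). Of all 12132 named genes, whatever their 40-minute value, 20 reached 1.5-fold with a positive sign at both 20 and 60 minutes.

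The other named genes beyond 2-fold at 40 minutes mostly did not recur. Of the 146, 13 (8.9%) reached 1.5-fold with the same sign at 20 minutes, where 1.24% of all named genes were, and 16 (11%) at 60 minutes, where 2.24% were. Set against the shorter lists of the other times, 9 of the 20 named genes past 2-fold at 20 minutes (0.165% of those measured) and 12 of the 42 at 60 minutes (0.346%) also stood past it here. In all, 20 of the 146 reached 1.5-fold with a positive sign on 1 or both of the other arrays, where 402 of all 12132 named genes did. At both other times 112 (76.7%) of the 146 were under 1.5-fold, a smaller share than the 95.1% (11541) of all named genes. With the sign turned, 15 (10.3%) were at least 1.5-fold negative at 20 minutes, where 1.28% of all named genes were, and 0 at 60 minutes. The median of the 146 was 0.01 at 20 minutes and 0.19 at 60 minutes, beside 0 and 0.01 for all named genes. Over 21855 genes and probes the 40-minute values had a Pearson's r of -0.09 with the 20-minute and 0.30 with the 60-minute values, and a Spearman's rho of -0.18 and 0.24, across genes of 1 array a time that are not independent replicates.

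**Figure D3:**
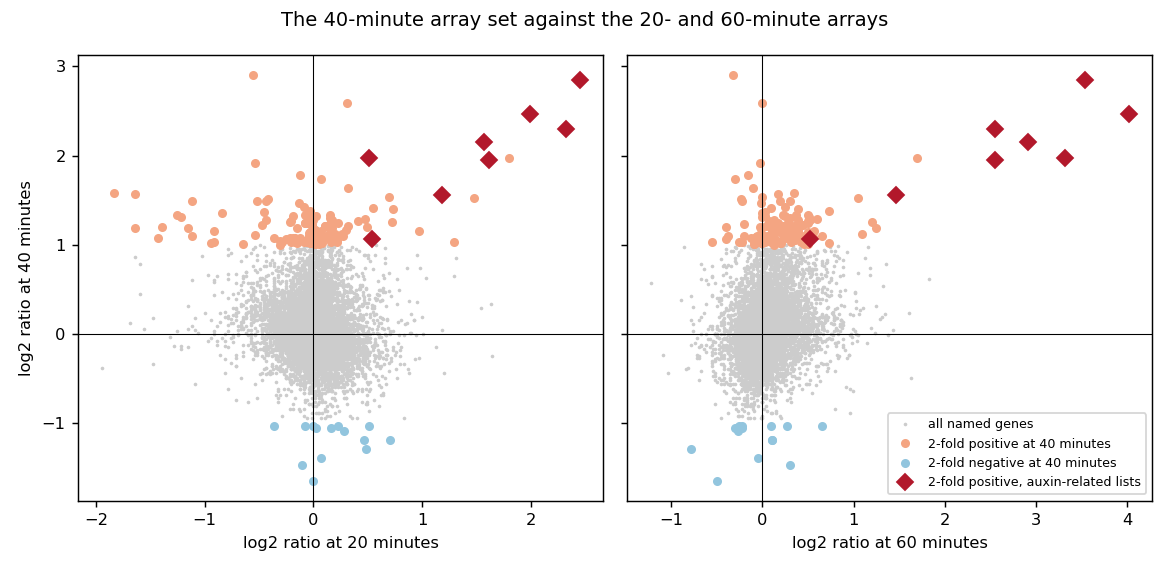
Log2 ratio of each named gene at 40 minutes (vertical axis) against its log2 ratio at 20 minutes (left) and 60 minutes (right). Red diamonds are the 8 auxin-related genes beyond 2-fold, which lie to the right of 0 in both panels, whereas most of the other 138 genes beyond 2-fold on the positive side (orange) lie around 0 at the other times; blue points are the 14 genes beyond 2-fold on the negative side.

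Among genes past 2-fold at 40 minutes and at least 1.5-fold with the opposite sign at 20 minutes, the difference was largest in AT59, a pectate lyase gene, with 1.58 at 40 minutes beside -1.84 at 20 and 0.34 at 60 minutes. AT1G14470 stood at 1.57 beside -1.64 and 0.18, AT1G63350 at 1.18 beside -1.64 and 0.12, and AT5G37460 at 1.49 beside -1.12 and 0.19. AT5G37430 stood at 1.20 beside -1.40 and -0.03, and BGLU36, a beta glucosidase gene, at 1.33 beside -1.25 and 0.23. In each of these 6 the 60-minute value was under 1.5-fold. The probes of AT59 and AT1G14470 have consecutive numbers, 528126 and 528127, and those of all 6 lie between 525970 and 529315. Whether these are separate changes of single genes was not tested.

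On the negative side 14 named genes passed 2-fold at 40 minutes. The lowest was AT1G62480, with a log2 ratio of -1.64, a ratio of 0.32, beside 0.00 at 20 and -0.49 at 60 minutes. AT4G27290 stood at -1.47, AT5G04120 at -1.40 and AT5G35480 at -1.29. AT5G35480 was the only one of the 14 that was at least 1.5-fold negative at another time, with -0.79 at 60 minutes, and it stood at 0.49 at 20 minutes. AT5G44580 and AT2G25150 were tied at -1.18, followed by AT1G10650 at -1.09, AT3G48760 and AT1G09310 at -1.06, and 5 genes tied at -1.03, which were AT5G47210, AT5G40450, AT3G55310, AT1G08580 and HIS1-3. HIS1-3 encodes a linker histone H1 variant known from water stress, and it stood at 0.52 at 20 and 0.28 at 60 minutes. AT2G25150 was likewise positive at 20 minutes, at 0.70, and AT3G55310 at 60 minutes, at 0.65.

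The histone list was made after the values were seen. Of 13 measured histone genes, 9 were below 0 and 4 at least 1.5-fold negative at 40 minutes, 30.8% beside 1.38% of all named genes, with a list median of -0.32. The other 3 were HIS4, a histone H4 gene, at -0.94, HON4, related to linker histones, at -0.92 and HTB1, a histone H2B gene, at -0.84. They stood at 0.07, 0.12 and -0.14 at 20 minutes and at -0.14, -0.25 and -0.22 at 60 minutes. The histone H3 genes AT4G40040 and AT5G10390 were above 0, at 0.31 and 0.20. Histone genes are close copies of one another, and probes may not tell them apart. ATRX, a chromatin remodelling ATPase gene, stood at -0.94, while the deacetylase gene HDA7 stood at 0.89 and the remodeller gene CHR23 at 0.67, and the chromatin list of 14 genes had a median of 0.06.

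In the other hormone pathways 0 measured members of the lists passed 2-fold. The 7 cytokinin response regulators had a list median of 0.39 at 40 minutes, beside -0.20 at 20 and 0.00 at 60 minutes. At 40 minutes 6 of the 7 were above 0, where 53.1% of all named genes were. RR16 led them at 0.65, beside -0.89 and 0.07, and it was the 1 member past 1.5-fold, where 5.72% of all named genes were. RR22 stood at 0.54, RR23 at 0.50, RR21 at 0.39, ARR15 at 0.33, RR18 at 0.31 and RR19 at -0.17. The gibberellin receptors GID1A, GID1B and GID1C stood at -0.09, -0.14 and -0.18. In ethylene signalling, EIN3, its central transcription factor, stood at -0.22 and RTE1 at -0.04. COR47, a dehydrin gene of the cold and abscisic acid response, stood at -0.92 within a list of 6 whose median was 0.11, and AT3G10040 (HRA1), of the low oxygen response, at -0.43.

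Cell wall genes, through which auxin-driven elongation works, lay on both sides. Of 27 expansin and xyloglucan endotransglucosylase genes, 14 were above 0 and 13 below, with a median of 0.03, or -0.01 when 250 neighbouring probe numbers on each side were subtracted, beside 0.03 for all named genes. EXPA21 stood at 1.08, XTH29 at 0.81 and XTH32 at 0.66, against XTH21 at -0.67. EXPA21 stood at 0.21 and -0.12 at the other times. The 12 genes of cellulose and hemicellulose synthesis kept between -0.15 and 0.26, with 0 past 1.5-fold. The root hair expansins EXPA7 and EXPA18 stood at -0.15 and -0.23.

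In the remaining large families a few members stood out against medians near 0. Of 9 WRKY factor genes, WRKY42 passed 2-fold and the next highest was ZAP1 at 0.16. The UDP-glycosyltransferases, which attach sugars to hormones and pigments, had a median of 0.08 over 52 genes, with 6 (11.5%) at least 1.5-fold positive beside 5.72% of all named genes. They were led by UF3GT at 0.86 and UGT84A1 at 0.83. The cytochrome P450 list (23 genes, median 0.06) was led by CYP71B22 at 0.93. Of 15 glutathione S-transferase genes, GSTU18 was highest at 0.63. Single members past 2-fold were found among the serine carboxypeptidase-like genes (scpl37 at 1.21, 32 measured) and the peroxidases (AT3G50990, PER36, at 1.27, 7 measured). The sugar carrier gene TMT3 stood at 1.06 and MSRB6, a methionine sulfoxide reductase gene, at 1.03, both outside the lists. Of 8 NETWORKED actin-binding genes 7 were below 0, where 5304 of all 12132 named genes were, and their median was -0.18. The member farthest from 0 was NET2C at 0.53, NET3A was lowest at -0.47, and 0 of the 8 passed 1.5-fold. Vesicle trafficking (32 genes, median -0.03, VPS2.1 at -0.49) and ubiquitin ligases (18 genes, median 0.07, SK19 at 0.77 and PUB19 at -0.74) had 0 members past 2-fold. Of all named genes 1.2% were past it with a positive sign and 0.115% with a negative one, so nothing is read from a 0 in lists of this size.

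In each of the remaining lists the member farthest from 0 is given. BHLH92 stood at 0.74, beside -0.15 at 20 and 0.23 at 60 minutes, and bHLH121, an iron homeostasis factor, at -0.71, with a list median of 0.00 over 10 genes. TBL15, of a family that acetylates wall polysaccharides, stood at 0.91 (26 genes, median 0.06), and cdc2cAt, a cyclin-dependent kinase gene, at 0.81. Of 7 genes of light harvesting and the photosystems 6 were above 0, beside 53.1% of all named genes, with PSAN highest at 0.39 and a list median of 0.21. The myosin gene XIJ stood at -0.49, the sugar transporter gene SWEET10 at 0.46, PGY1, a ribosomal protein gene, at 0.44, UBC33 at -0.34 and the autophagy gene ATG8B at 0.20. CSLB03, of the cellulose and hemicellulose list, stood at 0.26. The lists of MYB, NAC, ERF and DREB, and heat shock genes held 1 or 2 measured members each. They were led by AT5G47390 at 0.28, NAC014 at -0.18, DREB2C at 0.12 and HSP93-III at 0.03. The proteasome list matched only PAC, at 0.00, by its symbol alone. That PAC is a proteasome gene was not checked, so no proteasome gene is taken as measured. Among the tissue markers LHCB4.1 stood at 0.26 and PORB at 0.15, and 0 endodermis and 0 seed storage markers were measured.

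Genes best known from flowers, pollen and seeds stood on the positive side, in a list made after the values were seen. Of 29 measured, 23 were above 0, 9 (31%) were at least 1.5-fold positive beside 5.72% of all named genes, and 0 were 1.5-fold negative. The list's median was 0.25 at 40 minutes, beside -0.01 at 20 and 0.06 at 60 minutes. Beside AT59 it held AT4G31620 (REM36) at 0.99, the pollen ion transporter gene CHX23 at 0.96, ACT12, an actin gene of reproductive tissue, at 0.92 and ROXY2, of anther development, at 0.91. These stood at 0.33, -0.14, 0.06 and 0.18 at 60 minutes. At 40 minutes 5 members were below 0, the lowest being UFO at -0.38, OLEO3 at -0.25 and PPME1 at -0.15. The labels give 4-day-old seedlings, and flowers, pollen and seeds were not measured apart.

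**Figure D4:**
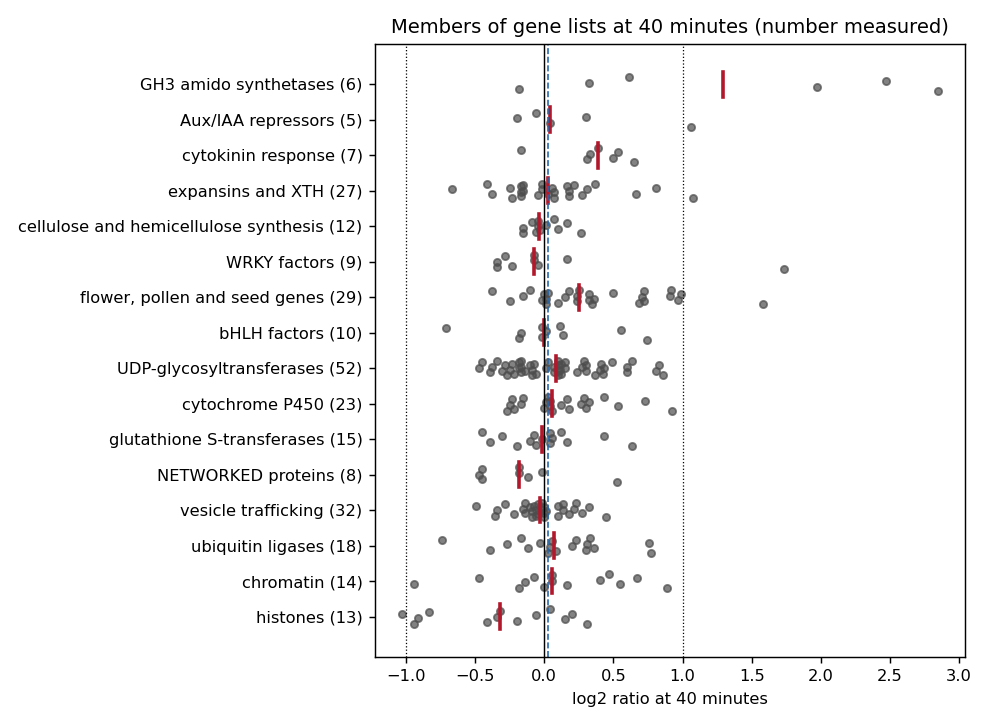
Log2 ratio at 40 minutes of each measured member (grey points) of 16 gene lists, with the list median as a red bar, the median of all named genes (0.03) as a dashed line and 2-fold as dotted lines; points are spread vertically to be seen. Of these lists the GH3 one has the highest median (1.29), with 3 members beyond 2-fold, and the histone list the lowest (-0.32).

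Genes beyond 2-fold at 40 minutes were not spread evenly over probe numbers or along the chromosomes. In runs of 500 consecutive probe numbers, of which there were 43 full ones, the 40-minute array had between 0 and 19 probes 2-fold positive per run, with a median of 4. Runs 1 to 5 held 61 of 2500 probes (2.44%) and runs 24 to 31 held 101 of 3996 (2.53%), blocks picked after the counts were seen, against 104 of 15433 (0.674%) in the others. In the same 3 sets, 0.12%, 0.325% and 0.279% of probes were 2-fold positive at 20 minutes and 0.16%, 0.701% and 0.467% at 60 minutes. The blocks held 97 of the 146 named genes, among them 3 of the 8 auxin genes, where 29.7% of all named genes lay. Of these 97, 9 (9.28%) were at least 1.5-fold positive at 60 minutes, and of the 49 outside 7 (14.3%). The medians of the 43 full runs lay between -0.04 and 0.07.

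**Figure D5:**
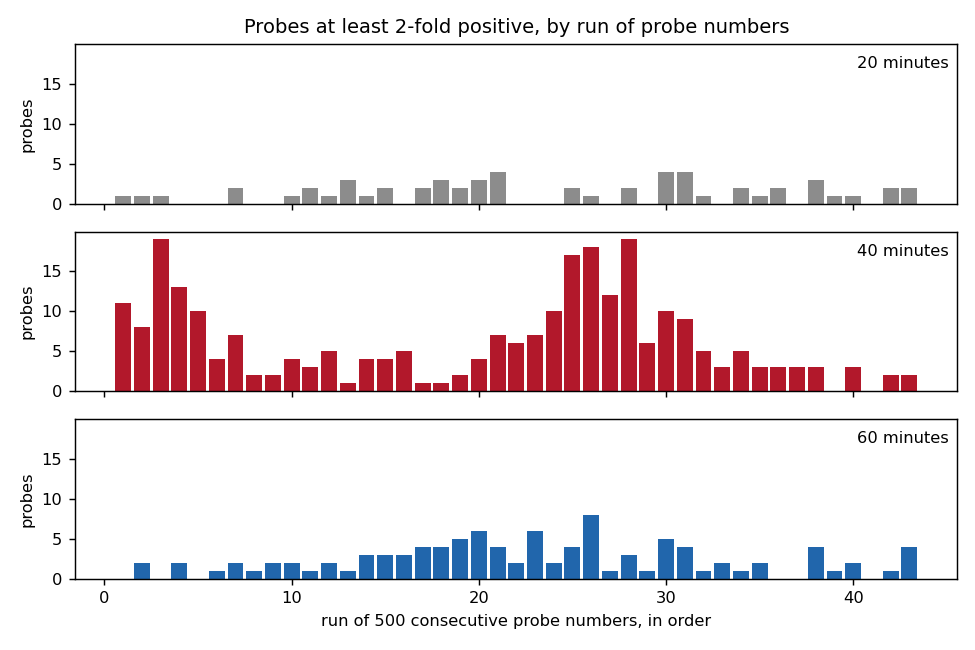
Number of probes at least 2-fold positive in each of 43 full runs of 500 consecutive probe numbers, for the arrays at 20, 40 and 60 minutes on 1 shared scale. The 40-minute array has its tallest bars in runs 1 to 5 and 24 to 31, up to 19 probes a run, where the 20- and 60-minute arrays stay at or below 8. The lowest 40-minute bar of these blocks, at 6, is below some bars outside them, which reach 7.

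By chromosome, taken from the locus code, the 2-fold positive genes at 40 minutes made up 1.15% of the named genes of chromosome 1, 0.558% of chromosome 2, 1.21% of chromosome 3, 1.5% of chromosome 4 and 1.48% of chromosome 5. Of the 146, 26 (17.8%) had a neighbouring measured gene that was also 2-fold positive, where 2.33% of all named genes had such a neighbour. At 60 minutes 0 of 42 had one, where 0.684% of all named genes did, and at 20 minutes 0 of 20, where 0.33% did, and nothing is read from a 0 in these shorter lists. The densest stretch of 15 measured genes held 5: AT1G14390 (1.92), AT59 (1.58), AT1G14460 (1.51), AT1G14470 (1.57) and AT1G14500 (1.12). The other 10 genes of the stretch ran from AT1G14480 at -0.47 to AT1G14250 at 0.44. In the first 4 the 60-minute values were between -0.23 and 0.34, and AT1G14500 stood at 1.09. At 20 minutes the same 4 were all negative, between -1.84 and -0.42, and AT1G14500 stood at 0.20. The probe numbers of the 4 lie between 527948 and 528218, whereas that of AT1G14500 is 517195.

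Gene order and probe number are linked on this platform, and position in the genome and position among the probes were not separated for these genes. Of 12127 pairs of neighbouring measured genes, 5160 (42.5%) had probe numbers 80 to 110 apart. Such pairs had a Spearman's rho of 0.18 at 40 minutes, and the 2010 pairs more than 1000 apart had 0.05. At 60 minutes the values were 0.23 and 0.02 and at 20 minutes 0.13 and 0.05. All 13 neighbouring pairs with both genes 2-fold positive at 40 minutes had probe numbers at most 206 apart. The share of all pairs at most 206 apart was not counted. Of the 13, 8 were 80 to 110 apart, beside 42.5% of all pairs. A further 5 were over 110 to 1000 apart, beside 40.6%, and 0 over 1000 apart, beside 16.6%. So few pairs do not show a link to probe number. Over all probes at 40 minutes, those 1 to 3 numbers apart had rank correlations of 0.090 to 0.099. Only 37 pairs of neighbouring genes (0.305%) had probe numbers under 80 apart. Probes 40 to 60 numbers apart had rank correlations of -0.031 to -0.004, and probes 88 apart had 0.098. The cause was not tested. Places of the spots on the array were not analysed here.

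Among the unnamed probes, number 532171 had the highest ratio of the whole array, 10.73, a log2 ratio of 3.42 at 40 minutes beside 1.38 at 20 and 4.33 at 60 minutes. The next, 536722, stood at 2.49 beside 1.19 and 2.25. The lowest were 536946 at -1.69, beside -0.14 and 0.67, and 537225 at -1.56. Of the 120 past 2-fold and positive here, 30 (25%) reached 1.5-fold with that sign at 20 minutes, beside 1.61% of all unnamed probes, and 39 (32.5%) at 60 minutes, beside 2.07%. At both times 28 did, of which 11 lay 89 or 103 probe numbers from another of the 28, the spacings most common between neighbouring named genes. Like counts over all unnamed probes were not made, so nothing is read from the 11. Some of the 28 had much the same ratios as one another. Probes 530326, 530429, 530635, 530738 and 530841 stood at 1.11 to 1.23, 1.25 to 1.37 and 1.17 to 1.34 at 20, 40 and 60 minutes. What the unnamed probes measure is not annotated in the tables used here, so the 28 may not be 28 separate genes.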

How the data were processed

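The deposited table held log2 ratios of the 2 channels of each array, made by the authors. The background correction, the normalization, the dyes, the array model and the genome build are each not given in the sources used here. That the base is 2 follows from the deposited values, since at 40 minutes 2 raised to each log2 value was a multiple of 0.01 for 100% of probes, within 1e-05. Near a ratio of 1 a rounding step is 0.0144. Columns of other samples numbered 0. Depth is not defined for arrays, and their number limits the precision.

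Probes were named through the platform annotation: 12195 had 1 gene, 1 had several and 9743 were not listed, so are unnamed here. Names were updated to a RefSeq table of assembly TAIR 10.1, for 12142 probes by gene identifier, 44 by locus code and 9 by symbol. Of the 12132 named genes, 10687 carry a locus code alone. No coordinates and no sequences are printed. Probes of 1 gene were averaged on the log2 scale (Python 3.11.15, pandas 2.3.3). No test was run, and the counting was tested on simulated data. List members were found by symbol or synonym, and 5 false matches were left out. Results of 1 list are not reported here.

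The genes and lists were chosen with earlier results of these data known. Genes named were the 20 highest and 12 lowest, every measured auxin-list member, members of other lists past 2-fold or else farthest from 0, genes high at all times, the 5 with the largest difference from the other times, and 6 on opposite sides. Genes outside the rule were chosen after their values were seen: these are further members of the histone, chromatin, cytokinin, cell wall and reproductive lists, TMT3, MSRB6, LEA, DL1D, AT1G17330, bHLH121, UGT84A1, PUB19, ZAP1, NET3A, AT1G14250, AT1G14480 and AT1G14500.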

Additional observations from a re-analysis of the deposited data

Results flagged for a closer look

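In the genes given first a positive 40-minute value and a negative 20-minute value were both beyond 1.5-fold. No replicate array exists for either time and this contrast was not tested. Subtracting the 20-minute from the 40-minute log2 value gave 3.42 for AT59, 3.21 for AT1G14470, 2.83 for AT1G63350, 2.61 for AT5G37460, 2.59 for AT5G37430, 2.58 for BGLU36 and 1.54 for RR16. In AT2G25150 the signs were the other way round, and the same subtraction gave -1.89. Of these genes, AT59 and AT1G14470 have consecutive probe numbers.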

How the results depend on the processing

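Of 266 genes and probes 2-fold positive at 40 minutes, 146 were named. With the arrays brought to the same median absolute deviation the count was 79, at 3-fold 37 and at 1.5-fold 1180. On the negative side the count of 31, of which 14 were named, was 10, 2 and 304 under the same settings. Named genes alone numbered 29, 14 and 694 on the positive side and 3, 1 and 167 on the negative side. With the local median over 10 adjacent probe numbers either way taken off, 94 named genes were 2-fold positive. The cause was not tested, apart from the threshold, which sets its own counts. The 20 named genes positive at 40 and at another time numbered 12 after scaling, 7 at 3-fold and 83 at 1.5-fold, and 1 on the negative side. Centring, averaging of probes and a window of 250 neighbours, the last chosen after seeing the data, kept each of these counts within 1.5 times. Of 48 single genes, scaling moved 34 by more than the spread within a gene, 10 neighbours moved 2, and centring and 250 neighbours moved 0. Scaling multiplies every 40-minute value by 1 factor, so which genes it moved was fixed by their distance from 0. Centring shifts every value by -0.01, less than that spread, so its 0 was fixed in advance. Protein lengths were not run, since no protein table was used here. No paired analysis was possible because each time has 1 array. No spot signal was used, so signal over background is unknown.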
